A study of Mus musculus
Rattus norvegicus and Mus musculus and Rattus norvegicus with 95 samples.

Results

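The genes described here encode heat shock proteins and molecular chaperones, measured in allodiploid embryonic stem cells (AdESCs), whose nuclei carry both a mouse and a rat haploid genome. They were chosen by symbol alone: every gene whose symbol starts with Hspa, Hspb, Hspd, Hspe, Hsp90, Dnaja, Dnajb, Dnajc or Cct2 to Cct8, together with Bag1 to Bag6 and Cryab. The rule found 82 genes of the 13926 mouse-rat homologues in the tables. By symbol these fall into 9 small heat shock protein genes, 9 HSP70 genes, 3 HSP90 genes, 4 DNAJA, 13 DNAJB and 25 DNAJC genes, 11 chaperonin genes, 6 BAG genes and 2 genes of HSP-binding proteins. Of these, 70 reached a mean of 1 FPKM (fragments scaled to transcript length and library size) over the bulk libraries and 66 reached it over the single-cell samples. The 12 genes below that level in bulk were Cct8l1, Dnajb3, Dnajb7, Dnajb8, Dnajc22, Dnajc28, Dnajc5b, Hspa12a, Hspa4l, Hspb3, Hspb7 and Hspb9, and they were not tested there. The stress-inducible HSP70 genes Hspa1a and Hspa1b were not analysed here.

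Bulk RNA sequencing covered stem cells labelled as being at the G0/G1 stage of 4 AdESC lines (MR1-1, MR2-1, RM1-1 and RM2-1), 2 rat ESC lines (DA25 and DA53) and 2 mouse ESC lines (F145 and F146), with 1 library per line. Single-cell sequencing covered 87 cells in 11 samples (cells of the same type and line form a sample). The 63 differentiated cells were 10 fibroblasts from an MR1-1 mouse chimaera, 8 neurons and 4 somatic cells of testis from an RM1-1 mouse chimaera, 4 lung cells and 20 somatic cells of testis from an RM2-1 rat chimaera, and cells of embryoid bodies (EBs), aggregates in which stem cells differentiate, from MR2-1 (12) and RM1-1 (5). The 24 AdESC cells, also labelled G0/G1, came from MR1-1 (6), MR2-1 (8), RM1-1 (4) and RM2-1 (6). A chimaera is an animal grown from a host embryo that received the stem cells.

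Chaperones bind unfolded or partly folded proteins and keep them from aggregating. HSP70 proteins take hold of short hydrophobic stretches in cycles of ATP hydrolysis that J-domain proteins (the DNAJ families) start and nucleotide exchange factors such as the BAG proteins end, and HSP90 proteins receive many clients from HSP70 at a late stage of folding. The chaperonins enclose a protein in a chamber: the CCT ring in the cytosol folds actin and tubulin, and Hspd1 with its lid Hspe1 works in mitochondria. Small heat shock proteins such as Hspb1 and Cryab hold unfolded proteins without ATP. The endoplasmic reticulum has its own HSP70 (Hspa5, also called BiP) and HSP90 (Hsp90b1, also called GRP94). Mouse embryonic stem cells are known to hold large amounts of cytosolic HSP70 and HSP90.

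Bulk libraries summed to between 312695 and 377664 FPKM, with 7835 to 8770 genes at 1 FPKM or more. Cells summed to between 213045 and 411555 FPKM, with 3444 to 6246 such genes. The read depth behind these values is unknown. The bulk replicates are separate lines. The single-cell samples are not: RM1-1 gave EB, neuron and testis samples, RM2-1 gave lung and testis samples, and each line gave AdESCs. The main fits treat samples of 1 line as independent, though they may share a culture or an animal. The labels do not tell whether cultures were separate, so a p-value here reflects only how far these samples spread, which may be technical. Pluripotency markers (4 of 8 in the tables) summed to between 0.0304 and 16.4 FPKM in the differentiated samples and between 546 and 787 FPKM in the AdESC samples. Markers of several labelled samples were absent or mixed. The RM2-1 lung cells had 0 of 6 lung epithelial markers at 1 FPKM or more, while their smooth muscle list summed to 2464 FPKM. They had 3 of 3 Leydig cell markers at that level (1135 FPKM summed, against 18.1 FPKM in RM2-1 testis cells). They also had 3 of 4 Sertoli cell markers at that level (2647 FPKM summed), of which Clu alone was 2617 FPKM. Clu also reached 1330 FPKM in the MR2-1 EB. The RM1-1 testis cells had 4 of 7 neuron markers and 1 of 4 Sertoli cell markers at that level. The MR1-1 fibroblasts had 9 of 11 fibroblast markers at that level, with Col1a1 at 16.7 FPKM. They also held the epithelial markers Epcam at 82.7 FPKM and Cdh1 at 41.4 FPKM, against 70.1 and 15.1 FPKM in the MR1-1 AdESC sample. These samples are called by their labels below. The count of chaperone genes that differed between differentiated and AdESC samples was 21 with all samples. It was 26 without the RM1-1 testis and neuron samples, 19 of them among the 21. Without the 3 samples of 4 cells it was 14, all among the 21.

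The HSP90 genes and the HSP70 genes Hspa8 and Hspa5 are shown by the ends of their coding sequences. They were picked because these ends carry the tails that mark the cytosolic and the endoplasmic reticulum forms. Their values on differentiation are given below. The mouse sequences end as follows, 5′ to 3′, in GENCODE M21 transcripts of GRCm38. The last 4 codons before the stop are in capitals, and 30 bases are shown of each.
Hsp90aa1 (chr12:110690605-110702728, minus strand): gacacatcacgcatgGAAGAAGTAGACtaa
Hsp90ab1 (chr17:45567775-45573271, minus strand): gatgcctcgcgcatgGAAGAGGTGGATtaa
Hspa8 (chr9:40800984-40810087, plus strand): tcaggccccaccattGAAGAGGTGGATtaa
Hsp90b1 (chr10:86690209-86705509, minus strand): aaggaatctacagagAAGGATGAATTGtaa
Hspa5 (chr2:34771970-34777547, plus strand): gaggatacatcagaaAAAGATGAGTTGtag
The first 3 end in Glu-Glu-Val-Asp, the tail by which cytosolic HSP70 and HSP90 bind cochaperones that carry a tetratricopeptide repeat. The last 2 end in Lys-Asp-Glu-Leu, the signal that returns a protein to the endoplasmic reticulum.

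The stem cells expressed the cytosolic chaperones at the highest levels of the set. Over the 8 bulk libraries Hsp90aa1 averaged 2249 FPKM, Hspa8 2084 FPKM and Hsp90ab1 1840.7 FPKM, against 382 FPKM for the most abundant chaperonin subunit, Cct5. The mitochondrial chaperonin pair Hspe1 and Hspd1 averaged 324 and 300.6 FPKM and the mitochondrial HSP70 Hspa9 298 FPKM. Hsp90b1 and Hspa5 averaged 259.9 and 218 FPKM. The J-domain gene of highest level in each family was lower, with 118 FPKM for Dnajc8, a factor of pre-mRNA splicing, 101 FPKM for Dnaja2, a general HSP70 partner, and 76.5 FPKM for Dnajb6, which holds back aggregation. Dnajc7, second in its family, had 100.2 FPKM. The leading BAG genes were Bag6 at 76.6 FPKM and Bag1 at 74.9 FPKM. All 82 genes together held 3.20% of the summed FPKM in AdESC lines (2.77% to 3.70%), 3.24% in rat lines and 3.36% in mouse lines, and both parental ranges lay within that of the AdESC lines.

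Bulk comparisons asked whether AdESCs, in which both genomes are read in 1 cell, differ from the stem cells of either species. Differences are given on the log2(FPKM + 1) scale with their standard error, which understates the change of genes with low values. Each p is limma's, with Benjamini-Hochberg adjustment across every gene tested, and a gene is said to differ, rise or fall when it is under 0.05. The labels do not state how the values of both genomes were combined for AdESCs, and the size of every difference between AdESCs and a parental species depends on it. In bulk samples fewer cells of a type and less RNA per cell cannot be told apart.

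AdESCs differed from mouse ESCs in 3 of 70 chaperone genes tested, with 3.89% of all genes called in that comparison (2.71% higher and 1.18% lower). The median difference over the 70 genes was -0.13, beside -0.01 over all genes. Of the 3 genes 2 were higher and 1 lower in AdESCs, and scaling to TPM also called 3, of which 2 are among these, with 1 higher and 2 lower. Hspa2 stayed higher there but missed the threshold (adjusted p = 0.0506), and none of the 3 genes turned its direction. Cct6b, a CCT subunit known for expression in the testis, had 6.50, 3.63, 7.61 and 2.24 FPKM in AdESC lines MR1-1, MR2-1, RM1-1 and RM2-1, against 0.455 and 0.443 FPKM in mouse lines F145 and F146. All 4 AdESC lines lay above both mouse lines, and the difference was 1.95 ± 0.40 (adjusted p = 0.0315). Hspa2, an HSP70 needed in male germ cells, had 10.3, 8.22, 6.68 and 8.46 FPKM in AdESC lines, against 3.12 and 3.10 FPKM in mouse lines. It was higher in AdESCs by 1.18 ± 0.28 (adjusted p = 0.047), again without overlap. Dnajc6, the clathrin-uncoating cofactor auxilin, had 1.37, 1.23, 2.12 and 1.25 FPKM in AdESC lines, against 13.7 and 7.84 FPKM in mouse lines, and was lower by 2.21 on the log2 scale (-2.21 ± 0.33, adjusted p = 0.00723). The Dnajc6 call held without each library in turn. The Cct6b call ended without any of the libraries other than RM2-1 (adjusted p up to 0.0999), and the Hspa2 call without any of the 8 (up to 0.112).

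Of the abundant chaperones, Hspa8, Hsp90ab1 and Hspa5 showed no such differences. Hsp90aa1, the most abundant, had 1726 to 2303 FPKM in AdESC lines, all below the rat lines DA25 and DA53 (3755 and 3118 FPKM). It was not called between AdESCs and either species. Hspa8 had 2773, 1489, 3059 and 1187 FPKM in AdESC lines MR1-1, MR2-1, RM1-1 and RM2-1, against 1905 and 2302 FPKM in rat lines DA25 and DA53 and 2263 and 1697 FPKM in mouse lines F145 and F146. The AdESC lines spread on both sides of both parental groups. Hsp90ab1 averaged 1912 ± 324 FPKM in AdESC lines, 1648 ± 202 FPKM in rat lines and 1890.5 ± 285 FPKM in mouse lines (SD, n = 4, 2 and 2), and Hspa5 had 224, 181, 264 and 171 FPKM in AdESC lines, 238 and 251 FPKM in rat lines and 291 and 127 FPKM in mouse lines. These ranges overlapped too. The difference between AdESCs and mouse ESCs was 0.01 for Hspa8 (adjusted p = 0.997) and 0.01 for Hsp90ab1 (adjusted p = 0.99), values that with so few lines do not show equal levels.

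**Figure D1:**
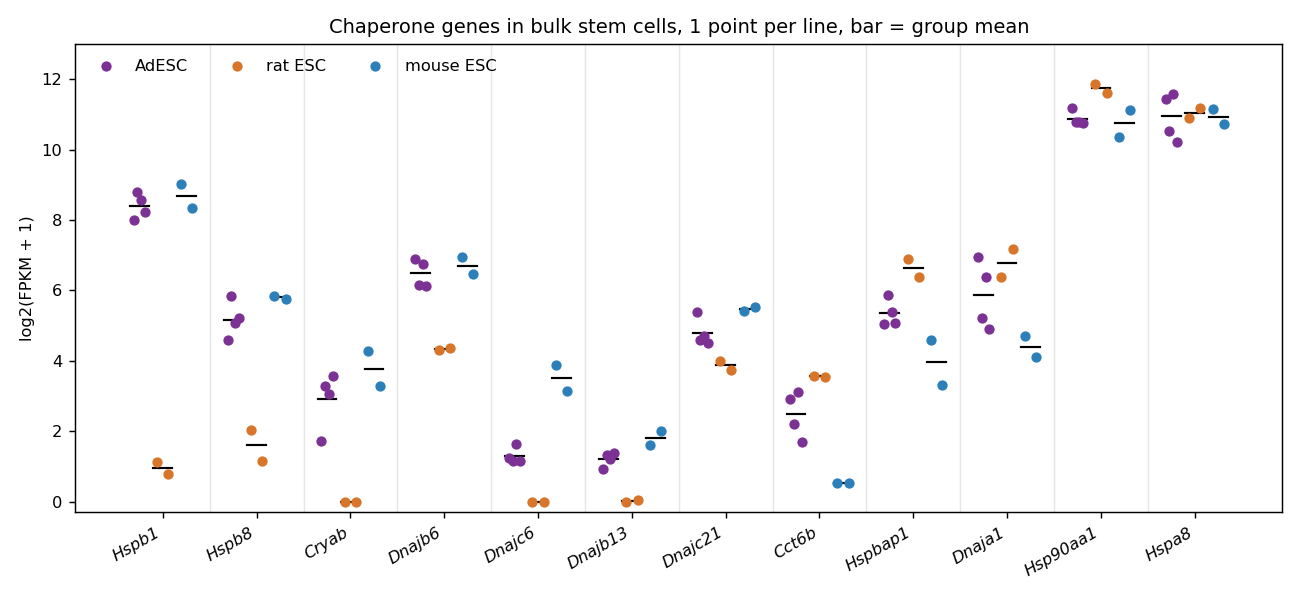
FPKM of selected chaperone genes in bulk stem cells on a log2(FPKM + 1) scale, with 1 point per line (4 AdESC, 2 rat and 2 mouse lines, left to right for each gene) and a bar at the group mean. Hspb1, Hspb8, Cryab and Dnajb6 sit far lower in the rat lines than in the AdESC and mouse lines, while Hspa8 overlaps between the groups and Cct6b and Hspbap1 are lowest in the mouse lines.

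The plot of bulk levels shows the pattern that set rat lines apart. Rat ESCs differed from mouse ESCs in 18 of 70 chaperone genes, 9 higher and 9 lower, with 26.6% of all genes called in that comparison (14.1% higher and 12.6% lower), so the share among chaperone genes was near the background. The median difference was 0.04 over the chaperone genes and 0.08 over all genes. Under upper-quartile scaling the split was 4 higher and 14 lower, with 13 of the 18 genes still called, and the median of all genes moved to -0.19. Under scaling to TPM it was 7 higher and 15 lower, with 16 of the 18 still called and a median of -0.11. Bag1, Dnajb1, Dnajc18, Hspbp1 and Hsp90aa1, all higher in rat, were no longer called under upper-quartile scaling (adjusted p from 0.0524 to 0.122). The count was 10 without DA25 and 8 without DA53. The lower genes were led by the small heat shock proteins. In 5 of the 18 called genes 1 of the species averaged under 1 FPKM. Of these, Cryab and Dnajc6 were listed at 0 in both rat lines, where the tables do not separate a missing gene model from missing transcripts. Hspb1, Dnajb13 and Cct6b had a value above 0 in at least 1 line of the lower species.

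Among the small heat shock proteins, Hspb1 had 255, 446, 377 and 299 FPKM in AdESC lines MR1-1, MR2-1, RM1-1 and RM2-1, 1.19 and 0.73 FPKM in rat lines DA25 and DA53, and 519.9 and 322 FPKM in mouse lines F145 and F146. MR2-1 and RM1-1 stood within the range of the mouse lines and MR1-1 and RM2-1 below it, all far above the rat lines. Hspb8, which acts with Bag3 in the disposal of aggregates, had 23.1, 56.1, 32.4 and 35.9 FPKM in AdESC lines, 3.11 and 1.23 FPKM in rat lines and 56.8 and 53.1 FPKM in mouse lines. It was higher in AdESCs than in rat ESCs by 3.57 ± 0.37 (adjusted p = 0.000198) and lower in rat than in mouse ESCs (-4.21 ± 0.43, adjusted p = 0.000109). Cryab, alpha-B crystallin, had 2.30, 8.84, 7.25 and 10.8 FPKM in AdESC lines, was listed at 0 in both rat lines, and had 18.5 and 8.66 FPKM in mouse lines. Both of its comparisons with rat passed the test (adjusted p = 0.0059 for AdESC and 0.00132 for mouse lines), with no fold given because of the zeros. The AdESC call for Cryab ended without DA25 (adjusted p = 0.0635) or DA53 (0.0687). Hspb2, whose gene overlaps that of Cryab head to head on mouse chromosome 9 with starts 1029 bases apart, was also listed at 0 in both rat lines, with 0.114 to 2.24 FPKM in AdESC lines and 0.508 and 6.59 FPKM in mouse lines. The counting of strands is not stated, so reads of the overlapping pair cannot be told apart. The class summed to 396 FPKM on average in AdESC lines, 9.83 FPKM in rat lines and 501 FPKM in mouse lines.

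The number of fibroblast and feeder markers detected also differed between the groups, while their sums overlapped between AdESC and rat lines. Of 11 such markers in the tables, 9 to 10 were at 1 FPKM or more in AdESC lines, 1 to 2 in rat lines and 10 to 11 in mouse lines. Col1a2, Col3a1, Dcn, Lum, S100a4 and Thy1 were listed at 0 in both rat lines. The list summed to between 444 and 612 FPKM in AdESC lines, to 326 and 675 FPKM in rat lines, nearly all of it Fn1, and to 3028 FPKM in F145 and 518 FPKM in F146. Their part in the small heat shock protein values was not tested. F145 had the higher marker sum of the mouse lines, and Hspb1 was 519.9 FPKM in F145 and 322 FPKM in F146, while Hspb8 was 56.8 and 53.1 FPKM.

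The J-domain genes went both ways. Dnajb6 had 118, 70.2, 107 and 68.8 FPKM in AdESC lines, 19.0 and 19.5 FPKM in rat lines and 122 and 87.7 FPKM in mouse lines. It was higher in AdESCs than in rat ESCs by 2.14 ± 0.29 (adjusted p = 0.00131) and lower in rat than in mouse ESCs (-2.36 ± 0.33, adjusted p = 0.000811), and both calls held without each library in turn. Dnajc6 was listed at 0 in both rat lines and Dnajb13, a protein of sperm flagella, at 0 and 0.0288 FPKM, against 13.7 and 7.84 FPKM and 2.08 and 3.03 FPKM in mouse lines. Both passed the test against mouse ESCs (adjusted p = 0.000161 and 0.00496). Against AdESCs they passed it as well (adjusted p = 0.0345 and 0.0383), though not without DA25 or DA53 (adjusted p from 0.215 to 0.267) nor without MR2-1, RM1-1 or RM2-1 (from 0.055 to 0.0873). Dnajc21, a factor of ribosome assembly, had 15.0 and 12.5 FPKM in rat lines and 41.4 and 45.4 FPKM in mouse lines (-1.60 ± 0.34, adjusted p = 0.00657, or 0.0623 without DA53). Dnajb9, a cofactor of Hspa5 in the endoplasmic reticulum, had 5.31 and 5.24 FPKM in rat lines and 9.72 and 16.4 FPKM in mouse lines (-1.12 ± 0.34, adjusted p = 0.0344), a call that ended without F146, DA25, DA53 or RM1-1 (up to 0.159).

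Other J-domain genes were higher in rat lines. Dnaja1, a farnesylated partner of cytosolic HSP70, had 82.9 and 144 FPKM in rat lines and 25.3 and 16.1 FPKM in mouse lines (2.38 ± 0.62, adjusted p = 0.0185, or 0.131 without DA53 and 0.0949 without F146). The AdESC lines held 123, 36.2, 82.9 and 28.7 FPKM of it and so covered most of the span between the species. Dnaja3, the mitochondrial partner of Hspa9, had 59.996 and 55.4 FPKM in rat lines and 26.3 and 24.7 FPKM in mouse lines (1.14 ± 0.26, adjusted p = 0.0106, or 0.0844 without DA25 and 0.0643 without DA53). Dnajb1, the stress-inducible HSP40, had 33.5, 35.8, 29.5 and 23.7 FPKM in AdESC lines, 57.6 and 55.1 FPKM in rat lines and 26.8 and 28.2 FPKM in mouse lines. Both rat lines lay above all other lines. Dnajb1 was higher in rat than in mouse ESCs by 1.01 ± 0.28 (adjusted p = 0.0236) and lower in AdESCs than in rat ESCs (-0.87 ± 0.24, adjusted p = 0.0475). The AdESC call for Dnajb1 ended without DA25, DA53 or any AdESC line (up to 0.291), and the rat call without any of the parental lines (up to 0.13). Dnajc18 had 11.8 and 11.4 FPKM in rat lines and 3.61 and 4.19 FPKM in mouse lines (1.37 ± 0.38, adjusted p = 0.0238), a call that also ended without any of the parental lines (up to 0.122).

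Among chaperonins, Cct6b had 10.9 and 10.7 FPKM in rat lines, against 0.455 and 0.443 FPKM in mouse lines (3.02 ± 0.47, adjusted p = 0.00132). Its paralogue Cct6a, the CCT subunit of most tissues, had 185 and 177 FPKM in rat lines and 320.2 and 348 FPKM in mouse lines. That gene was lower in rat ESCs (-0.88 ± 0.29, adjusted p = 0.045), without overlap between the groups, but the call ended without any parental line, MR2-1 or RM1-1 (up to 0.181). The paralogues are similar in sequence, and reads could have been split between them in counting. Cct6a was named after its values were seen.

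The HSP-binding, HSP90 and BAG genes that differed were all higher in rat lines. Hspbap1, a protein that binds small heat shock proteins, had 32.1, 57.6, 40.8 and 32.8 FPKM in AdESC lines, 117 and 82.3 FPKM in rat lines and 23 and 9.00 FPKM in mouse lines. The AdESC lines lay between the species without overlap with either. The difference of rat from mouse was 2.68 ± 0.44 (adjusted p = 0.00185), and those of AdESCs from either species did not pass the test (adjusted p = 0.0743 against mouse ESCs). Hspbp1, which promotes nucleotide exchange on HSP70, had 39 and 40.3 FPKM in rat lines and 18.5 and 19.5 FPKM in mouse lines (1.02 ± 0.28, adjusted p = 0.0224, but up to 0.133 without F145, DA25 or DA53). Hsp90aa1, the inducible cytosolic HSP90, had 2303, 1776, 1756 and 1726 FPKM in AdESC lines, 3755 and 3118 FPKM in rat lines and 1307 and 2253 FPKM in mouse lines. It was higher in rat than in mouse ESCs by 0.99 ± 0.31 (adjusted p = 0.0404), a call that held only without F146 or MR1-1 among the libraries left out, with 0.204 without F145, 0.183 without DA25, 0.0953 without DA53, 0.0573 without MR2-1, 0.0578 without RM1-1 and 0.0601 without RM2-1. Bag1 had 118 and 94.2 FPKM in rat lines and 53 and 61 FPKM in mouse lines (0.88 ± 0.25, adjusted p = 0.0282, but up to 0.197 without F145, DA25 or DA53).

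AdESCs differed from rat ESCs in 7 of 70 chaperone genes, 6 higher and 1 lower, with 9.7% of all genes called (5.79% higher and 3.91% lower). These were Hspb1, Hspb8, Cryab, Dnajb6, Dnajc6 and Dnajb13 above and Dnajb1 below, and 4 of the 7 averaged under 1 FPKM in rat lines. The median difference was -0.16 over the chaperone genes and -0.11 over all genes. Under upper-quartile scaling, which moved the median of all genes to 0.20, 9 genes were higher and 0 lower, and under scaling to TPM 7 were higher and 0 lower, each with 6 of the 7 genes still called. The count was 3 without DA25 or DA53, 4 without MR2-1, RM1-1 or RM2-1, and 11 without F145 or F146. Against the mean of the parental species on the log2 scale, 2 of 70 genes were called, both higher, with 1.27% of all genes called (1.21% higher and 0.0682% lower). Hspb1 was higher by 3.58 ± 0.24 (adjusted p = 6.07e-05) and Hspb8 by 1.47 ± 0.30 (adjusted p = 0.0488). Both are genes with a few FPKM or less in the rat lines. For such genes the mean of the log2 values lies far below the plain mean of the FPKM values. A level at that plain mean would already lie above the value tested against. These calls therefore do not show a level beyond either species. The Hspb8 call ended without any single library other than MR1-1 (up to 0.232). RM and MR lines differed in 0 of 70 chaperone genes by limma, with 0% of all genes called. At an unadjusted p under 0.05 there were also 0 of the 70, beside 51 of 8794 genes.

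Single cells were used to ask how the genes change when AdESCs differentiate. A sample's value is the mean FPKM of its cells, 7 differentiated samples were set against 4 AdESC samples, and the single-cell and bulk tables were normalized separately. Of 66 chaperone genes tested, 21 differed, 9 higher and 12 lower in differentiated samples, while 15.9% of all genes were called (7.37% higher and 8.57% lower). The median difference was -0.27 over the chaperone genes and 0.02 over all genes. Hsp90aa1, Hsp90ab1, Hspa8, Hspa9, Cct4 and Cct8 were among the lower genes, and Cryab, Hspb6, Hspb11, Hspa5 and Dnajc3 among the higher ones. Scaling to TPM moved the median of all genes to 0.14 and left 9 genes higher and 11 lower. The count was 11 without the MR1-1 AdESC sample and 13 without the RM1-1 AdESC sample. In the chimaera samples the tissue, the host species and the line change together and cannot be told apart.

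**Figure D2:**
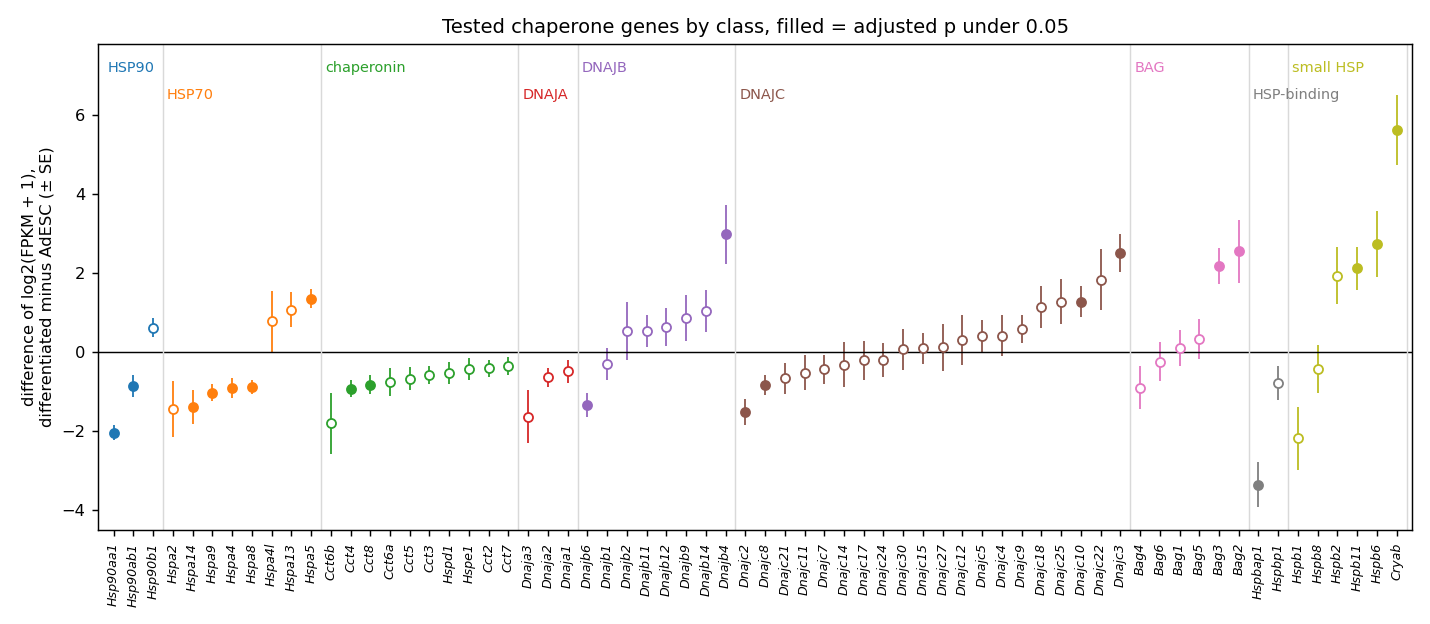
Difference of log2(FPKM + 1), differentiated minus AdESC samples, with its standard error for each chaperone gene tested, ordered by class. Filled points passed an adjusted p of 0.05: 9 lie above 0 and 12 below, the highest being Cryab at 5.62 and the lowest Hspbap1 at -3.35, and all 10 chaperonin genes lie below 0.

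As the plot of differences by class shows, 2 of 3 HSP90 genes were called, both lower, beside 15.9% of all genes called (8.57% lower). Hsp90aa1 had 284 FPKM at the lowest (RM2-1 lung), 503 FPKM at the median and 584 FPKM at the highest (MR1-1 fibroblasts) in differentiated samples, against 1785, 1846, 1828 and 2171 FPKM in AdESC samples MR1-1, MR2-1, RM1-1 and RM2-1. Every differentiated sample lay below every AdESC sample by a wide gap. Hsp90aa1 fell (-2.04 ± 0.19, adjusted p = 5.94e-06), the lowest adjusted p of the set. Hsp90ab1, the constitutive form, had 545, 1462 and 1727 FPKM at the lowest, median and highest in differentiated samples, against 2294, 2058, 2211 and 2164 FPKM in AdESC samples. Its groups did not overlap either, and it fell by a smaller amount (-0.86 ± 0.28, adjusted p = 0.0465), a call that ended without the MR2-1 EB, the RM2-1 testis or any AdESC sample (up to 0.121) and in 12 of its 22 alternatives in all (up to 0.142). Hsp90b1 had 174, 193 and 397 FPKM at the lowest, median and highest in differentiated samples, against 132, 156, 159 and 138 FPKM in AdESC samples. All 7 differentiated samples lay above the 4 AdESC samples, yet the difference did not pass the test (0.63 ± 0.25, adjusted p = 0.0967).

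HSP70 genes had 5 of 8 tested members called, 1 higher and 4 lower, beside 15.9% of all genes called (7.37% higher and 8.57% lower). Hspa8, the constitutive cytosolic HSP70, had 1561, 2073 and 2913 FPKM at the lowest, median and highest in differentiated samples, against 4311, 3412, 4526 and 3222 FPKM in AdESC samples. The neurons were the highest differentiated sample and still lay below the lowest AdESC sample. It fell (-0.88 ± 0.18, adjusted p = 0.00436, or 0.0722 without a trend in the prior variance). Hspa9, which pulls proteins into mitochondria, had 84.2, 101 and 117 FPKM in the same order, against 171, 226, 204 and 212 FPKM in AdESC samples. It fell without overlap (-1.02 ± 0.21, adjusted p = 0.00344). Hspa14, a ribosome-associated HSP70, had 14.5, 70.1 and 108 FPKM in differentiated samples, against 139, 169, 98.4 and 180.3 FPKM in AdESC samples, so that the neurons at 108 FPKM overlapped the RM1-1 AdESC sample at 98.4 FPKM. It fell (-1.39 ± 0.43, adjusted p = 0.0406), but not without either testis sample or any AdESC sample (up to 0.122) or with the median of the cells (0.142). Hspa4, a nucleotide exchange factor of the Hsp110 kind that was named after its values were seen, had 30.5, 33.3 and 48.7 FPKM in differentiated samples, against 63.8, 70.5, 71.7 and 67.1 FPKM in AdESC samples. It fell (-0.91 ± 0.25, adjusted p = 0.0222), and the call ended without any AdESC sample (up to 0.0697).

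Hspa5 went the other way. It had 219, 357 and 513 FPKM at the lowest (RM2-1 lung), median (RM1-1 testis) and highest (MR2-1 EB) in differentiated samples, against 148, 179.8, 136 and 114 FPKM in AdESC samples. Every differentiated sample lay above every AdESC sample, and Hspa5 rose by 1.36 ± 0.25 (adjusted p = 0.00173). Of the 5 genes whose last codons are printed above, the 3 with the cytosolic tail fell, Hspa5 rose, and Hsp90b1 did not pass the test. Differences between these genes were not tested.

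The plot of sample levels shows these genes sample by sample. Among chaperonins 2 of 10 tested genes fell and 0 rose, a share near the 15.9% of all genes called, and the median difference over the 8 CCT subunits tested was -0.71. Cct4 had 114, 173 and 251 FPKM at the lowest, median and highest in differentiated samples, against 319.9, 308, 336 and 359 FPKM in AdESC samples. It fell without overlap (-0.92 ± 0.22, adjusted p = 0.00941, or 0.0572 without a trend in the prior variance). Cct8, named after its values were seen, had 179.7, 289 and 443 FPKM in differentiated samples, against 519.9, 428, 559 and 476 FPKM in AdESC samples. The RM1-1 testis sample at 443 FPKM overlapped the MR2-1 AdESC sample. Cct8 fell (-0.82 ± 0.24, adjusted p = 0.0291), and the call ended without any AdESC sample (up to 0.1). Cct5 did not pass the test (-0.67, adjusted p = 0.131), with 190.0 to 671.5 FPKM in differentiated samples and 663.6 to 727.8 FPKM in AdESC samples.

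The mitochondrial pair overlapped. Hspe1 had 179, 377 and 494 FPKM at the lowest, median and highest in differentiated samples, against 428, 423, 412 and 418 FPKM in AdESC samples (-0.43, adjusted p = 0.318). Hspd1 had 142, 203 and 377 FPKM in differentiated samples, against 316, 255, 383 and 331 FPKM in AdESC samples (-0.53, adjusted p = 0.197). With the cell line as a block the Hspd1 difference passed the test (-0.69, adjusted p = 0.0347). It also passed without the RM1-1 testis and neuron samples (-0.79, adjusted p = 0.0261). The 2 genes overlap head to head on mouse chromosome 1 with starts 111 bases apart, and both have named pseudogenes (6 of Hspe1 and 5 of Hspd1), so their values are uncertain.

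**Figure D3:**
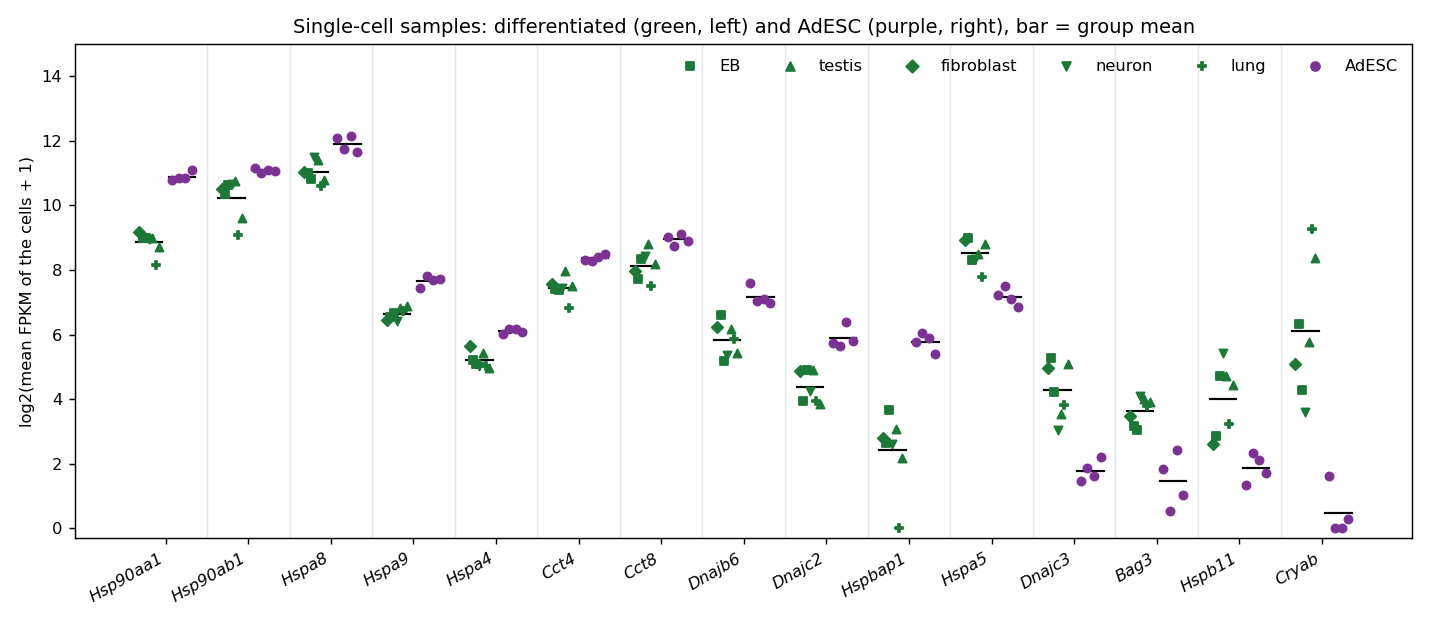
Mean FPKM of the cells of each single-cell sample on a log2 scale after adding 1, for selected chaperone genes, with differentiated samples on the left and AdESC samples on the right of each gene, marked by type, and bars at the group means. Hsp90aa1, Hspa8 and Hspbap1 do not overlap between the groups and are lower in differentiated samples, and Hspa5 and Cryab do not overlap and are higher.

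Small heat shock proteins had 3 of 6 tested members higher and 0 lower, beside 15.9% of all genes called (7.37% higher). Cryab had 11.1 FPKM in RM1-1 neurons, 18.4 FPKM in the RM1-1 EB, 33.2 FPKM in MR1-1 fibroblasts, 53.3 FPKM in RM1-1 testis, 79.2 FPKM in the MR2-1 EB, 332 FPKM in RM2-1 testis and 618 FPKM in RM2-1 lung, against 2.1, 0, 0 and 0.234 FPKM in AdESC samples MR1-1, MR2-1, RM1-1 and RM2-1. The highest differentiated samples were both of line RM2-1 from the rat chimaera. Cryab rose (5.62 ± 0.89, adjusted p = 0.000583) under every alternative tried. Smooth muscle markers, 3 of 5 in the tables, summed to 2464 FPKM in RM2-1 lung and 4150.1 FPKM in RM2-1 testis, between 38.1 and 816 FPKM in the other 5 differentiated samples, and between 3.24 and 6.03 FPKM in AdESC samples. Their part in the Cryab values was not tested. Hspb6, a small heat shock protein of muscle, had 4.99, 24.3 and 73.1 FPKM at the lowest, median and highest in differentiated samples, against 0, 6.29, 0.504 and 7.97 FPKM in AdESC samples, an overlap. It rose (2.74 ± 0.83, adjusted p = 0.0359), but the call ended without MR1-1 AdESC, RM1-1 AdESC, RM1-1 neurons, RM1-1 testis, RM2-1 lung or RM2-1 testis (up to 0.137), with the median of the cells (0.184) or without the 3 samples of 4 cells (0.226). Hspb11, a subunit of the intraflagellar transport machinery of cilia that carries a heat shock protein's symbol, had 5.15, 20.7 and 41.9 FPKM in differentiated samples, against 1.54, 4.08, 3.32 and 2.28 FPKM in AdESC samples. It rose without overlap (2.12 ± 0.55, adjusted p = 0.0174, or 0.0648 without MR1-1 AdESC and 0.0529 without RM2-1 AdESC).

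Hspb1, the small heat shock protein of highest level in bulk stem cells, did not pass the test. It had 27, 4.83, 1.04, 1.30, 0.604, 12.8 and 33.9 FPKM in MR1-1 fibroblasts, MR2-1 EB, RM1-1 EB, RM1-1 neurons, RM1-1 testis, RM2-1 lung and RM2-1 testis, against 44.6, 26.2, 22.5 and 27.4 FPKM in AdESC samples. The fibroblasts and the RM2-1 testis sample overlapped the AdESC samples and the other 5 differentiated samples lay below them. The difference was larger than its error but missed the threshold (-2.18 ± 0.80, adjusted p = 0.0772), and did with the cell line as a block (-1.82, adjusted p = 0.0367). It also passed without MR1-1 fibroblasts (-2.52, adjusted p = 0.0372) or without RM2-1 testis (-2.57, adjusted p = 0.033). The same held with the mean of logs over cells (-2.46, adjusted p = 0.0304) or the median of the cells (-2.85, adjusted p = 0.0452). Hspb8 was between 0.6 and 14.5 FPKM in differentiated samples and between 4.7 and 5.7 FPKM in AdESC samples.

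The class sums show the balance. HSP90 genes summed to 1999 ± 532 FPKM in differentiated samples and 4235 ± 173 FPKM in AdESC samples (SD, n = 7 and 4). HSP70 genes summed to 2751 ± 553 and 4458 ± 603 FPKM and chaperonins to 2548 ± 743 and 3678 ± 148 FPKM, in each case differentiated and then AdESC samples. Small heat shock proteins summed to 237 FPKM on average in differentiated samples (61.5 to 667 FPKM) and to 42.5 FPKM in AdESC samples (31.9 to 53.1 FPKM), without overlap. This class, set by symbol, counts Hspb11, which made up 25.1 of the 61.5 FPKM in the RM1-1 EB. Without Hspb11 that sample would lie among the AdESC samples. All 82 genes held 2.61% of the summed FPKM in differentiated samples (2.15% to 3.00%) and 3.93% in AdESC samples (3.64% to 4.25%), without overlap.

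**Figure D4:**
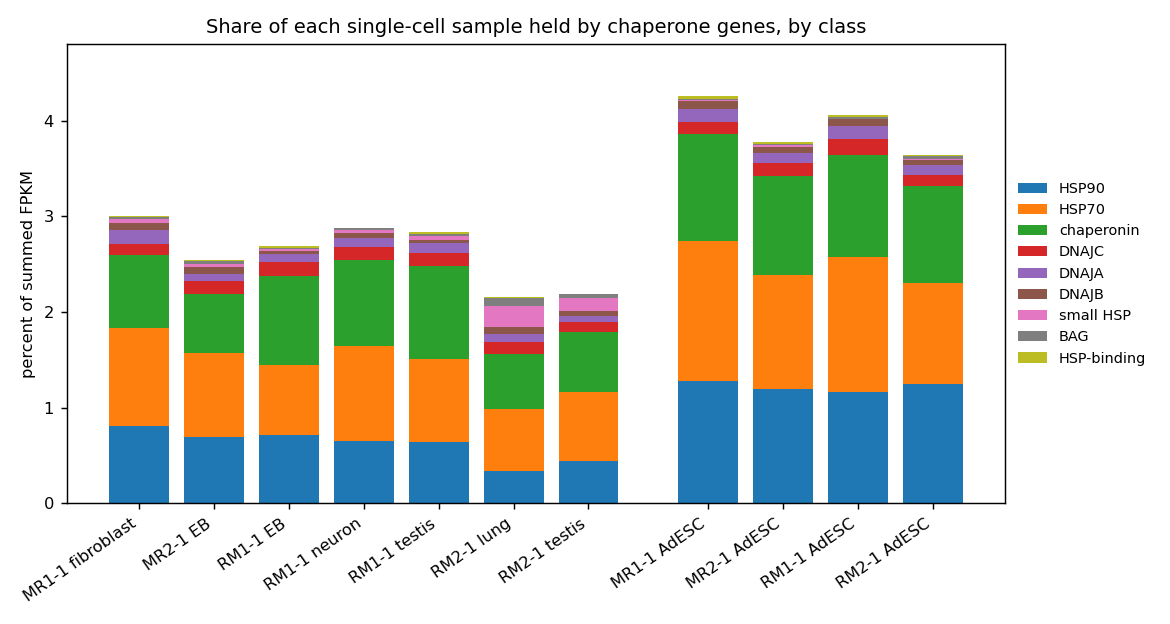
Percent of the summed FPKM of each single-cell sample held by chaperone genes, stacked by class, with the 7 differentiated samples on the left and the 4 AdESC samples on the right. The stacks reach 2.15% to 3.00% in differentiated samples and 3.64% to 4.25% in AdESC samples, and the small heat shock protein layer is visible mainly in RM2-1 lung and RM2-1 testis.

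The plot of class shares places most of the lower total in the HSP90, HSP70 and chaperonin layers. Among the J-domain genes, 4 of 20 tested DNAJC genes, 2 of 8 DNAJB genes and 0 of 3 DNAJA genes were called by limma, with 2 of the DNAJA genes at an unadjusted p under 0.05. Of all genes 15.9% were called, so the DNAJC share of 20.0% was near the background. Dnajc3, an inhibitor of the stress kinase PERK that works beside Hspa5, had 7.21, 17.6 and 38 FPKM at the lowest, median and highest in differentiated samples, against 1.74, 2.63, 2.06 and 3.58 FPKM in AdESC samples. It rose without overlap (2.50 ± 0.48, adjusted p = 0.00247, or 0.0678 with the median of the cells as a sample's value). Dnajc10, a disulphide reductase of the endoplasmic reticulum, had 21.1, 40.1 and 62.7 FPKM in differentiated samples, against 15.0, 16.5, 22.2 and 7.1 FPKM in AdESC samples, with the RM1-1 EB at 21.1 FPKM inside the AdESC range. It rose (1.28 ± 0.38, adjusted p = 0.0345), a call that ended without MR1-1 AdESC, MR2-1 AdESC, RM2-1 AdESC, MR2-1 EB, RM1-1 neurons or RM2-1 testis (up to 0.131). Dnajc2, a J-domain protein at the ribosome that pairs with Hspa14, had 13.5, 18.1 and 28.8 FPKM in differentiated samples, against 52.3, 49.1, 83.3 and 54.8 FPKM in AdESC samples. It fell without overlap (-1.51 ± 0.33, adjusted p = 0.00609), and its call and that of Dnajb6 held under every alternative.

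Dnajb6 had 35.6, 57.4 and 96.5 FPKM at the lowest, median and highest in differentiated samples, against 191, 130.5, 135 and 126 FPKM in AdESC samples. It fell without overlap (-1.34 ± 0.30, adjusted p = 0.00732). Dnajc8 had 59.9, 89.1 and 131 FPKM in differentiated samples, against 148, 129.95, 189 and 152 FPKM in AdESC samples, and the RM1-1 testis sample overlapped the MR2-1 AdESC sample. It fell (-0.83 ± 0.25, adjusted p = 0.0371), but not without MR1-1 fibroblasts, MR2-1 EB, RM2-1 testis or any AdESC sample (up to 0.128). Dnajb4, a cytosolic relative of Dnajb1, had 1.87, 5.61 and 50.1 FPKM in differentiated samples, against 0, 0.0277, 0 and 1.70 FPKM in AdESC samples. It rose (2.99 ± 0.75, adjusted p = 0.0137, or 0.0504 without MR1-1 AdESC, 0.051 without RM1-1 AdESC, 0.062 with the mean of logs over cells and 0.199 with the median of the cells). Dnajb1 itself had 8.1 to 34.4 FPKM in differentiated samples and 16.1 to 38.3 FPKM in AdESC samples, and did not pass the test (-0.30, adjusted p = 0.641).

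The HSP-binding gene Hspbap1 had 5.99, 5.27, 11.8, 5.16, 7.39, 0 and 3.54 FPKM in MR1-1 fibroblasts, MR2-1 EB, RM1-1 EB, RM1-1 neurons, RM1-1 testis, RM2-1 lung and RM2-1 testis, against 53.5, 65.4, 58.4 and 41 FPKM in AdESC samples. Every differentiated sample was far below every AdESC sample, and the gene fell (-3.35 ± 0.56, adjusted p = 0.000866). BAG genes had 2 of 6 higher and 0 lower, beside 15.9% of all genes called (7.37% higher). Bag3, which links HSP70 to autophagy, had 7.24, 12.8 and 16.2 FPKM at the lowest, median and highest in differentiated samples, against 2.55, 0.465, 4.34 and 1.05 FPKM in AdESC samples. It rose without overlap (2.19 ± 0.45, adjusted p = 0.00435), though not where the median of the cells was taken (adjusted p = 0.175). Bag2, an inhibitor of the ubiquitin ligase Stub1, had 3.37, 24.6 and 164.7 FPKM in differentiated samples, against 0.337, 2.44, 5.49 and 9.73 FPKM in AdESC samples, an overlap. It rose (2.55 ± 0.80, adjusted p = 0.0423), but not without MR1-1 fibroblasts, MR2-1 EB, RM2-1 lung, RM2-1 testis, MR1-1 AdESC, MR2-1 AdESC or RM1-1 AdESC (up to 0.159).

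EB and testis samples each had 2 lines and were compared with the same 4 AdESC samples, so the comparisons share them. In EBs 9 of 67 chaperone genes tested were called, 4 higher and 5 lower, with 6.64% of all genes called (2.77% higher and 3.87% lower). In testis samples 14 of 67 were called, 7 higher and 7 lower, with 12.3% of all genes called (6.19% higher and 6.12% lower). With the cell line as a block the counts were 5 for EBs and 5 for testis. Leaving out samples gave 3 in EBs without the MR2-1 EB and 5 without MR1-1 AdESC or RM1-1 AdESC, and in testis 4 without RM2-1 testis, 7 without MR1-1 AdESC, 8 without MR2-1 AdESC and 9 without RM1-1 AdESC or RM2-1 AdESC. Hsp90aa1 had 503 and 513 FPKM in the EBs of MR2-1 and RM1-1 and 509.9 and 416 FPKM in testis cells of RM1-1 and RM2-1. It fell in EBs (-1.90 ± 0.19, adjusted p = 0.000135) and in testis (-2.04 ± 0.19, adjusted p = 5.16e-05), under every alternative.

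The other 8 calls in EBs each ended without the MR2-1 EB. Hspbap1 fell in EBs (-2.61 ± 0.48, adjusted p = 0.00743, or 0.0525 without the MR2-1 EB) and in testis (-3.15 ± 0.48, adjusted p = 0.00165). Cryab rose in EBs (4.82 ± 0.83, adjusted p = 0.0054, or 0.0794 without the MR2-1 EB, 0.12 with the mean of logs over cells, 0.253 with the median of the cells and 0.0513 without the filter) and in testis (6.59 ± 0.83, adjusted p = 0.000515). Hspa5 rose in EBs (1.49 ± 0.29, adjusted p = 0.00951, or 0.0802 without the MR2-1 EB and 0.0514 with the block) and in testis (1.48 ± 0.29, adjusted p = 0.00656, or 0.0555 without the RM2-1 testis). For both Hspbap1 and Cryab the testis calls held without each sample in turn. Dnajc3 rose in EBs (2.97 ± 0.61, adjusted p = 0.0143, or 0.113 without the MR2-1 EB and 0.3 with the median of the cells) and in testis (2.54 ± 0.61, adjusted p = 0.0193, or 0.145 without the RM2-1 testis, 0.0501 without MR1-1 AdESC, 0.0675 with the block and 0.215 with the median of the cells). Hspa8 fell in EBs (-0.98 ± 0.21, adjusted p = 0.0169, or up to 0.12 without either EB, MR1-1 AdESC or RM1-1 AdESC) and in testis (-0.81 ± 0.21, adjusted p = 0.0264, or up to 0.192 without RM2-1 testis, MR1-1, MR2-1 or RM1-1 AdESC, and 0.0959 with the block).

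Also called in EBs were Hspa9 (-1.06 ± 0.26, adjusted p = 0.0332), Cct4 (-0.97 ± 0.24, adjusted p = 0.0336) and Hspb2 (14.9 and 4.65 FPKM in EBs and listed at 0 in all AdESC samples, adjusted p = 0.0298). With the block they had adjusted p = 0.132, 0.147 and 0.0775. For Hspa9 and Cct4 every one of the 6 samples in the contrast ended the call (up to 0.102 and 0.098), and for Hspb2 every one but the RM1-1 EB (up to 0.154).

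Also called in testis were Hspb6 (4.45 ± 0.86, adjusted p = 0.00665), Hspb11 (2.70 ± 0.64, adjusted p = 0.0171), Hspa14 (-1.61 ± 0.34, adjusted p = 0.011), Bag3 (2.50 ± 0.66, adjusted p = 0.0293), Hsp90ab1 (-0.91 ± 0.26, adjusted p = 0.0419), Dnajc2 (-1.52 ± 0.45, adjusted p = 0.0464), Dnajb6 (-1.38 ± 0.41, adjusted p = 0.0482) and Hspa13, a microsomal HSP70 (1.60 ± 0.48, adjusted p = 0.0492). Without the RM2-1 testis all 8 ended (adjusted p of 0.0704, 0.0762, 0.0711, 0.104, 0.226, 0.224, 0.255 and 0.0596 in that order). Without the RM1-1 testis Hspb6, Hspb11, Bag3, Dnajb6 and Hspa13 ended (0.0753, 0.103, 0.114, 0.0758 and 0.233). Leaving out single AdESC samples ended Bag3 (without MR1-1, MR2-1 or RM2-1) and Hsp90ab1, Dnajc2, Dnajb6 and Hspa13 (without any of the 4), with adjusted p up to 0.127, and leaving out either EB also ended Hsp90ab1 (0.0595 and 0.0686). With the block all but Hspb6 ended (adjusted p from 0.07 to 0.234). Between testis and EB samples 0 of 67 chaperone genes differed by limma, with 0.122% of all genes called (0.0608% higher and 0.0608% lower). At an unadjusted p under 0.05 there were 3, beside 737 of 8218 genes, among them Hspb6 (3.25 ± 1.00, adjusted p = 0.332).

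Cells within a sample were compared as a description, with no test, since cells of 1 sample are not replicates. Hsp90aa1 ran from 54 to 1088 FPKM with a median of 468 FPKM over the 63 differentiated cells and from 997 to 3110 FPKM with a median of 1867 FPKM over the 24 AdESC cells, so that only the upper end of the differentiated cells reached the lower end of the AdESC cells. The SD of log2(FPKM + 1) within a sample averaged 0.48 in differentiated and 0.33 in AdESC samples. Hspa8 had a median of 1997 FPKM (780 to 3626) over differentiated cells and 3792 FPKM (1613 to 5696) over AdESC cells. Hspa5 had a median of 387 FPKM (86.1 to 1224) over differentiated cells and 116 FPKM (54.6 to 462) over AdESC cells. Both of these overlapped between cells though not between samples.

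**Figure D5:**
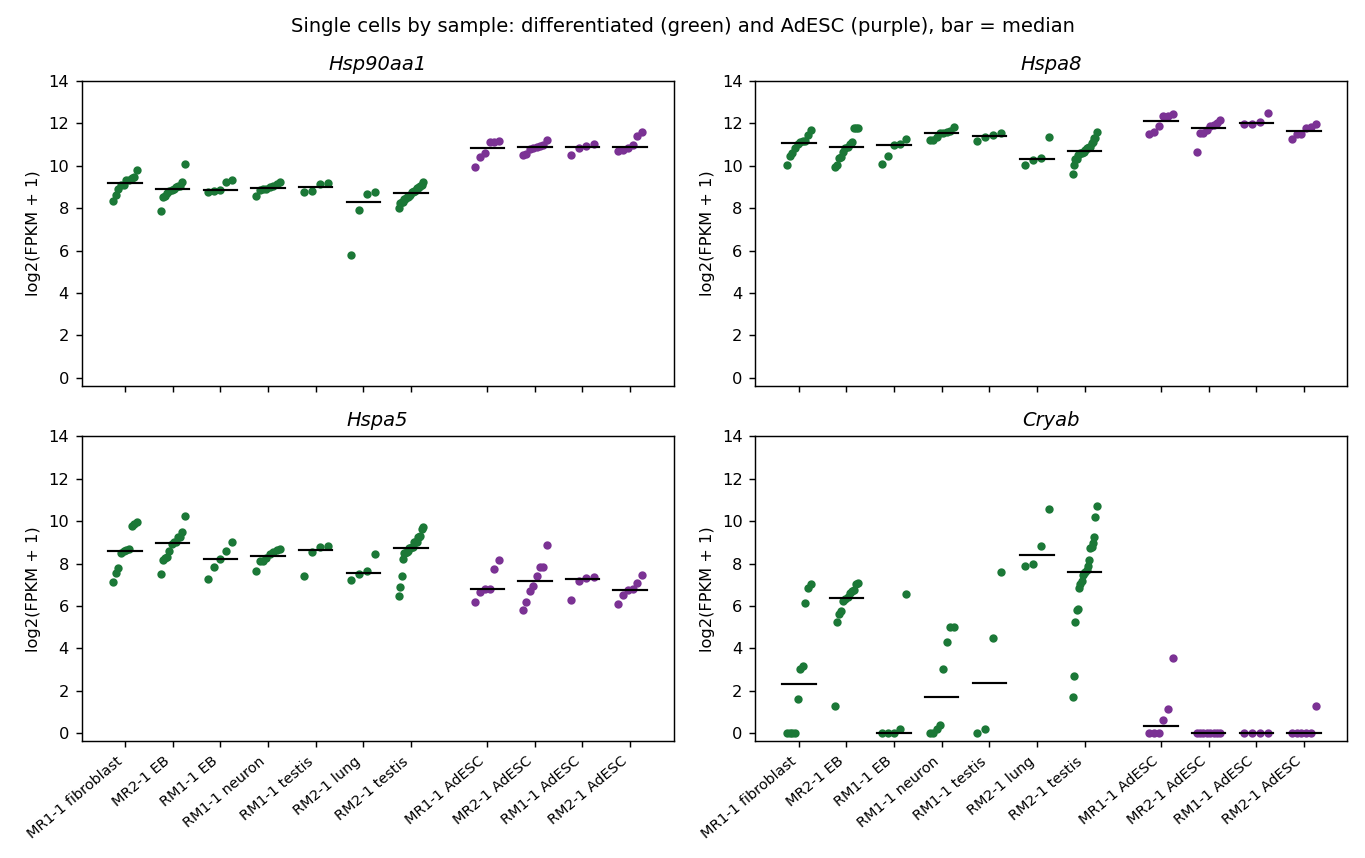
FPKM of 4 chaperone genes in each single cell on a log2(FPKM + 1) scale, by sample, with differentiated samples on the left, AdESC samples on the right and a bar at the median of the cells. Hsp90aa1 has medians of 468 FPKM over differentiated and 1867 FPKM over AdESC cells, while Cryab spreads from 0 to 1663 FPKM among differentiated cells and is at 0 in 20 of 24 AdESC cells.

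The plot of single cells shows that Cryab varied widely between cells of 1 sample. Its median over the differentiated cells was 69.8 FPKM, with 10 of 63 cells at 0 and 49 at 1 FPKM or more, and the highest cell had 1663 FPKM. Among AdESC cells 20 of 24 were at 0 and 3 at 1 FPKM or more. Within differentiated samples the SD of log2(FPKM + 1) was 2.41, above that of 99.5% of genes of like mean, whose median was 1.52. The lowest, median and highest cells had 238, 349 and 1538 FPKM in RM2-1 lung, 2.24, 190.7 and 1663 FPKM in RM2-1 testis, and 1.45, 81.3 and 134 FPKM in the MR2-1 EB, and 3 of 5 cells of the RM1-1 EB were at 0. Every cell of the first 3 samples was thus above 0. Hspb1 was at 1 FPKM or more in all 24 AdESC cells and at 0 in 22 of 63 differentiated cells. A cell at 0 in FPKM may have held transcripts below what its library could count.

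Other proteostasis genes were set beside these from lists chosen by function. Of 14 tested cochaperones of HSP70 and HSP90, 3 fell and 0 rose in differentiated samples, with a median difference of -0.35 and 15.9% of all genes called in that comparison, so that the share of 21.4% was not far from the background. Ptges3, the HSP90 cochaperone p23, averaged 731 ± 186 FPKM in differentiated samples and 2066 ± 169 FPKM in AdESC samples (SD, n = 7 and 4) and fell (-1.54 ± 0.20, adjusted p = 0.000112). Hsph1, an Hsp110 exchange factor, averaged 21 ± 11.6 and 65.3 ± 14.1 FPKM in differentiated and AdESC samples and fell (-1.72 ± 0.38, adjusted p = 0.00691), and St13, which links HSP70 to HSP90, averaged 102 ± 35.6 and 185 ± 41.1 FPKM and fell (-0.91, adjusted p = 0.0463). Among 7 tested mitochondrial folding factors and proteases 3 fell and 0 rose. These were the protease Yme1l1 (-1.52 ± 0.33, adjusted p = 0.00584) and the exchange factors of Hspa9, Grpel1 (-0.82, adjusted p = 0.0463) and Grpel2 (-1.20, adjusted p = 0.0457).

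Among 12 tested folding factors of the endoplasmic reticulum 3 rose and 0 fell, with a median of 0.79, beside 15.9% of all genes called (7.37% higher). Serpinh1, the collagen chaperone HSP47, averaged 32.4 ± 34.1 FPKM in differentiated samples and 0.993 ± 0.728 FPKM in AdESC samples (3.51 ± 0.71, adjusted p = 0.00354). Ppib, a prolyl isomerase that acts on collagen, averaged 419 ± 89.7 and 208 ± 18.4 FPKM in differentiated and AdESC samples (0.98 ± 0.20, adjusted p = 0.00388), and the disulphide isomerase Pdia6 287 ± 98.5 and 147 ± 25.7 FPKM (0.90 ± 0.27, adjusted p = 0.0365). The collagen gene Col1a1 was 16.7, 40.5, 5.51, 93.6 and 154 FPKM in MR1-1 fibroblasts, MR2-1 EB, RM1-1 EB, RM2-1 lung and RM2-1 testis, 0.01 FPKM in RM1-1 neurons and testis, and 0 to 1.12 FPKM in AdESC samples. The whole fibroblast list of 11 genes summed to between 357 and 3127 FPKM in differentiated samples and between 45.3 and 57.4 FPKM in AdESC samples. Its highest sums were mostly Vim (3042 of 3127 FPKM in RM1-1 testis and 1669 of 1688 FPKM in RM1-1 neurons), and its part in these values was not tested. Heat shock factors (3 tested) and other cytosolic folding genes (4 tested) had 0 called by limma, with 1 and 2 at an unadjusted p under 0.05. In bulk, rat ESCs had 4 cochaperones of 15 higher and 2 lower than mouse ESCs, 3 of 12 endoplasmic reticulum genes higher and 0 lower, 2 of 7 mitochondrial genes higher and 1 lower, and 1 of 3 heat shock factor genes higher, beside 26.6% of all genes called. Between AdESCs and mouse ESCs 0 genes of these lists were called by limma, beside 3.89% of all genes called. At an unadjusted p under 0.05 there were 4 cochaperones, 5 mitochondrial genes, 1 endoplasmic reticulum gene and 1 heat shock factor gene.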

How the data were processed

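Gene expression was measured by RNA sequencing in 8 bulk libraries and 87 single cells captured on a C1 chip, with libraries from a TruSeq kit, per the labels' protocols. The authors deposited FPKM values, and per the submitters' processing notes FastQC 0.10.1, TopHat2 2.0.10 and Cufflinks 2.1.1 were used with the builds mm10 and rn5. The tables give no unit and no depth, so no counting interval is given. How values of both genomes were joined in AdESCs, and whether strand was counted, are not given in the sources used here.

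Both tables were joined by gene symbol, and genes of the set were taken by a symbol rule. The members and lists were chosen with earlier results of these data known. A single-cell sample is the mean FPKM of its cells. Groups were compared with limma (version 3.58.1, under R 4.3.3), on log2(FPKM + 1). The prior variance had a trend, and genes averaging under 1 FPKM across a fit's samples were left out. P-values were two-sided, with Benjamini-Hochberg adjustment across every gene tested and a threshold of 0.05. Bulk fits held all 8 libraries. Named genes were those called (the 15 largest differences where more were called), the 3 of each class with the highest bulk mean and a short fixed list, and others are said to be named after their values were seen. The fits were tested on simulated data.

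The cell line pairs differentiated and AdESC samples of the same line, per the labels. Over 7 such pairs the deviations from the group means correlated between -0.0150 and 0.0356, with 0 over 0.1, and 3 of 7 samples correlated best with their own line. Fits with the line as a block were therefore made as an alternative. Other alternatives changed the pseudocount (0.1), the filter (none, or 5 FPKM), the prior trend, the scaling (upper quartile, TPM), the grouping of RM and MR lines and the summary of cells, or left out 1 sample at a time. Positions came from the GENCODE M21 annotation of GRCm38 and coding ends from GENCODE M21 transcripts.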

Additional observations from a re-analysis of the deposited data

Results flagged for a closer look

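In groups of 4 to 10 samples, 72 sets of values of named genes were checked for a highest or lowest sample that stood far from the others, and 8 had one. Chance gives about 1 in 20 only for normally distributed values. Some of these sets lay near 0, so the count of 8 was not tested against that rate. In bulk AdESC lines Dnajc6 was 2.12 FPKM in RM1-1 and 1.23 to 1.37 FPKM in the other lines, and Hsp90aa1 was 2303 FPKM in MR1-1 and 1726 to 1776 FPKM in the others. In single-cell AdESC samples Cryab was 2.1 FPKM in MR1-1 and 0 to 0.234 FPKM in the others, and Dnajb4 was 1.70 FPKM in RM2-1 and 0 to 0.0277 FPKM in the others. Dnajb6 was 191 FPKM in MR1-1 AdESC cells and 126 to 135 FPKM in the other AdESC samples. Dnajc2 was 83.3 FPKM in RM1-1 AdESC cells and 49.1 to 54.8 FPKM in the others, and Hsp90aa1 was 2171 FPKM in RM2-1 AdESC cells and 1785 to 1846 FPKM in the others. Among differentiated samples Bag2 was 164.7 FPKM in RM2-1 lung and 3.37 to 52 FPKM in the other 6. The Hsp90aa1 values that stood out came from different lines in bulk and in single cells.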

How the results depend on the processing

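No result changed sign under any alternative run. For AdESCs against mouse ESCs the count of 3 became 1 with a filter of 5 FPKM and 1 with RM and MR apart, and 1 to 2 with single libraries left out. For AdESCs against rat ESCs the count of 7 became 4 with RM and MR apart, and 3 to 11 with libraries left out. For rat against mouse ESCs the count of 18 ran from 8 to 18 with libraries left out, and was 10 without DA25. Against the parental mean the count of 2 became 1 without the filter, without the trend or with RM and MR apart, 4 under upper-quartile scaling, and 1 to 2 with libraries left out. For differentiated against AdESC samples the count of 21 became 13 without the trend, and 11 to 21 with single samples left out. It was 14 without the 3 samples of 4 cells and 26 without both the RM1-1 testis and neuron samples. For EBs the count of 9 became 5 without the trend, with the replicate block or with the mean of logs over cells, and 3 to 13 with samples left out. For testis the count of 14 became 7 without the trend, 5 with the block and 9 with the median of the cells, and 4 to 14 with samples left out. Between testis and EBs the count of 0 became 1 with the mean of logs. The block changed no other count by over 1.5 times (27 in place of 21 for differentiated samples). The cause of these changes was not tested beyond what each alternative removes.

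Of 79 single-gene results, 27 kept their side of the threshold under every alternative run, 50 were lost in at least 1 and 2 (Hspb1 and Hspd1 in differentiated samples) passed it in at least 1. Calls held throughout for Dnajc6 against mouse ESCs, for Hspb1, Hspb8 and Dnajb6 against rat ESCs, and for 7 of 21 genes in differentiated samples: Cryab, Dnajb6, Dnajc2, Hsp90aa1, Hspa5, Hspa9 and Hspbap1. With 2 lines in each parental group, 2 EB and 2 testis samples and 4 to 20 cells in a sample, small differences could not be detected, and depth is unknown.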

Other observations

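The bulk AdESC lines spread widely in some abundant chaperones, and the lines whose names carry the number 1 were high in bulk in each case named here, chosen after the values were seen. Hspa8 was 2773 FPKM in MR1-1 and 3059 FPKM in RM1-1, with 1489 FPKM in MR2-1 and 1187 FPKM in RM2-1. Dnaja1 was 123 and 82.9 FPKM in MR1-1 and RM1-1, with 36.2 and 28.7 FPKM in MR2-1 and RM2-1. Hspd1 was 379.6 and 415 FPKM in MR1-1 and RM1-1, with 212 and 195 FPKM in MR2-1 and RM2-1. In single AdESC cells Hspa8 had the same order, with 4311 and 4526 FPKM in MR1-1 and RM1-1 and 3412 and 3222 FPKM in MR2-1 and RM2-1. Dnaja1 had it too, with 294 and 329 FPKM in MR1-1 and RM1-1 and 196 and 204 FPKM in MR2-1 and RM2-1. Hspd1 did not keep it there, with 316 and 383 FPKM in MR1-1 and RM1-1 and 255 and 331 FPKM in MR2-1 and RM2-1, so that MR1-1 lay below RM2-1. No test was made of this split.

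Hspb1 stood at 255 to 446 FPKM in bulk AdESC lines and at 22.5 to 44.6 FPKM in single-cell AdESC samples of the same lines, in tables normalized separately. The fibroblast and feeder list summed to between 444 and 612 FPKM in those bulk libraries and between 45.3 and 57.4 FPKM in the single-cell samples, and its part in the Hspb1 values was not tested.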
